A study of Saccharomyces cerevisiae with 8 samples.

Results

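Transcript signals of 4 budding yeast genes were followed across the 4 culture groups of the study: PUG1 (YER185W), a porphyrin and heme transporter gene, HMX1 (YLR205C), the heme oxygenase gene, and the PUG1 relatives RSB1 (YOR049C) and RTA1 (YGR213C). The members are known genes of porphyrin and heme handling and their relatives, found as the probe sets that the array annotation gives to exactly 1 of them. Each gene had 1 such probe set, so they make up 4 of the 5656 genes that the array reads with at least 1 probe set of their own. The study asked how yeast transcript levels answer a lack of heme and a lack of oxygen. It used 8 Affymetrix arrays, 2 for each of 4 groups.

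In the first pair of groups a strain labelled hem1 delta was grown in rich medium (YPD). It was kept for 6 h with 250 µM 5-aminolevulinic acid (ALA), washed, and then cultured in 15 ml for 16 h either with 250 µM ALA or without it. ALA is what the HEM1 enzyme makes, and a cell that lacks the enzyme depends on added ALA for heme. The second pair came from a wild type, named BY45742 in the labels, grown for 6 h in YPD and then for 12 h in 15 ml of it, in air (normoxia) or in an anaerobic chamber (hypoxia). Both wild type groups carry HEM1 and received no ALA, and both hem1 groups grew in air as far as the labels say. The labels describe the hem1 cultures as duplicates and leave unsaid whether the paired wild type arrays had cultures of their own. What the p-values measure is then the spread between arrays, which may be technical. Strain and culture time differ together between the pairs, so a difference between a hem1 group and a wild type group cannot be told apart from a difference of time.

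Heme is built from ALA through porphyrin intermediates, and its last steps need oxygen. Yeast lacking heme or oxygen cannot make ergosterol or respire, and it switches on genes for taking up sterols and other lipids. PUG1 encodes a plasma membrane protein that takes up protoporphyrin IX and lets heme out of the cell. HMX1 encodes an enzyme of the endoplasmic reticulum that breaks down heme, frees its iron and is known as a target of the iron regulator Aft1. RSB1 and RTA1 belong with PUG1 to a fungal family of multispan membrane proteins tied to lipid translocation. RSB1 exports sphingoid long-chain bases, and RTA1 was named for resistance to 7-aminocholesterol. PUG1 is known in the field for its induction under these same conditions, so its rise here is not independent evidence of that response.

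The values are MAS5 signals, brightness per probe set on a linear scale, as deposited. Median signals ran from 98.1 to 158.8 per array, and the 30th percentiles, below which a probe set is called dim here, from 26.6 to 48.7. Tests are from limma on log2 signals of 7081 probe sets, two-sided, with Benjamini-Hochberg adjustment over all of them, and n = 2 arrays in every group. Over all probe sets the median log2 signal rose by 0.40 when ALA was withheld and by 0.49 under hypoxia, and between the control cultures hem1 exceeded wild type by 0.23. Differences are therefore also given with the array medians set equal (median centring). The HEM1 probe set read 460 and 608 in ALA-fed hem1, 849 and 696 in starved hem1, 707 and 683 in aerobic wild type, and 1413 and 1613 in hypoxic wild type, so it did not mark the deletion. It may lie outside the deleted part and checks nothing. LEU2, a leucine synthesis gene used as a strain marker, read 1684 to 3662 on the 4 hem1 arrays and 6.93 to 36.4 on the 4 wild type arrays. The ACT1 3′ to 5′ ratio, a sign of RNA integrity, was 1.57 to 1.86 on the hem1 arrays, 1.40 and 1.49 on the aerobic wild type arrays, and 2.11 and 2.18 on the hypoxic ones. It moved with hypoxia. It also lay higher in ALA-fed hem1 (1.86 and 1.57) than in aerobic wild type, and lower in starved hem1 (1.81 and 1.77) than in hypoxic wild type. Its part in the hypoxia results and in the comparisons between strains below was not tested. A high 18S ribosomal RNA control signal marked replicate 1 without ALA (3717) and replicate 2 in hypoxia (10736). The other 6 arrays read 148 to 723.

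PUG1, the porphyrin transporter gene, was brightest in the heme-starved strain and dim in wild type cells in air. The arrays read 71.2 and 95 in ALA-fed hem1, 820 and 417 in starved hem1, 16.9 and 22.6 in aerobic wild type, and 171 and 150 in hypoxic wild type. Both normoxia arrays lay below their 30th percentile. Without ALA it rose 7.11-fold, from 83.1 ± 16.9 to 618 ± 285 (SD, n = 2), a log2 difference of 2.83 (SE 0.33, limma adjusted p = 0.000289). In hypoxia it rose at least 5.57-fold against dim normoxia signals, from 19.7 ± 4.06 to 161 ± 15.3, with a fitted log2 difference of 3.04 (SE 0.33, adjusted p = 0.000138). With median centring the log2 differences were 2.43 and 2.55. The arrays without ALA differed from each other by more than those of any other group. Without replicate 1 of them, the array with the high 18S signal, the log2 difference was 2.34, and without replicate 2 it was 3.32. Both rises passed under every alternative that was run.

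The difference of the PUG1 responses to the treatments did not pass (log2 -0.21, 95% interval -1.28 to 0.87, adjusted p = 0.792). It rests on 2 dim normoxia arrays, and its sign turned with dim signals raised to the 30th percentile (0.35), with 32 added to each signal (0.54), with quantile normalization (0.15) and without replicate 2 of starved hem1 (0.28), within a range of -0.79 to 0.54. The interval is wide enough to hold a larger response to either treatment. The levels did differ between strains at the start. With ALA, PUG1 already stood above normoxia, at least 2.86-fold (log2 2.07, SE 0.33, adjusted p = 0.00384). Hypoxia left it only 0.96 on the log2 scale above hem1 with ALA (adjusted p = 0.0407), a call lost under 9 of 17 alternatives, where adjusted p ranged from 0.0153 to 0.192. Heme-starved hem1 stood 1.87 on the log2 scale above hypoxic wild type (SE 0.33, adjusted p = 0.00875). That call was lost without replicate 1 in hypoxia (adjusted p = 0.0602), without replicate 2 in hypoxia (0.0594) and without both arrays of high 18S signal (1.28, adjusted p = 0.146), within a range of 0.00434 to 0.146. The order of the levels was thus hem1 without ALA, hypoxia, hem1 with ALA and normoxia, with the middle pair and the top pair parted least firmly.

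**Figure D1:**
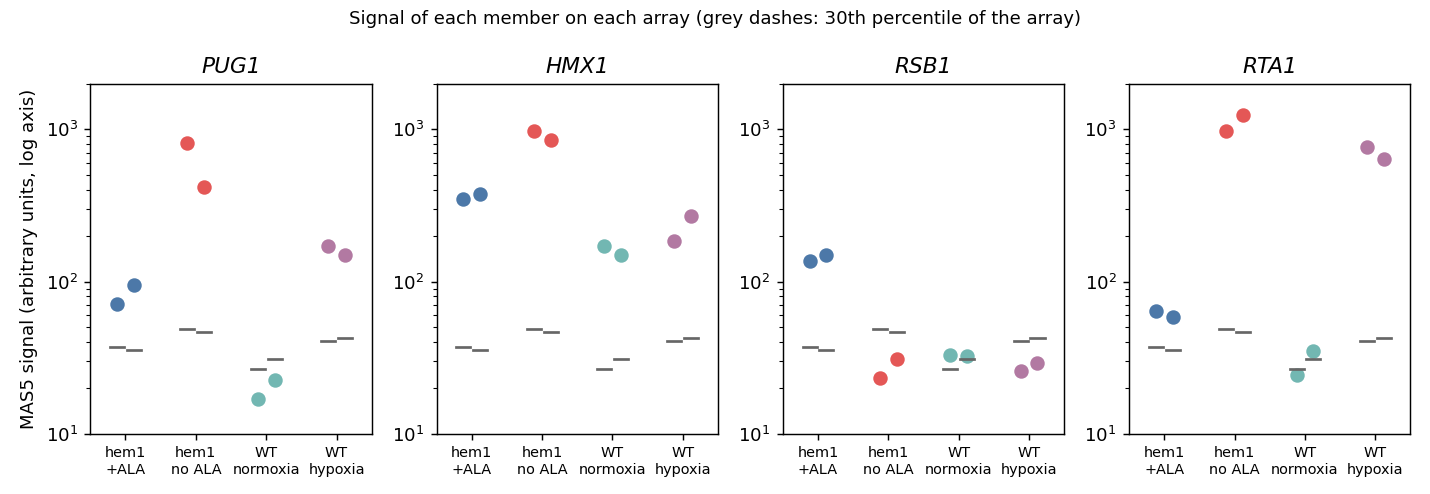
MAS5 signal (log axis) of each gene on each of the 8 arrays, 2 points a group, with the 30th percentile of the same array as a grey dash. PUG1 and RTA1 are high without ALA and in hypoxia, HMX1 without ALA, and RSB1 (136 and 149) with ALA alone lies clearly above the dashes.

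HMX1, the heme oxygenase gene, rose with heme starvation, and its response to hypoxia did not pass. It read 351 and 377 in ALA-fed hem1, 982 and 849 in starved hem1, 172 and 149 in aerobic wild type, and 184 and 271 in hypoxic wild type. Every array of the hem1 strain was brighter than every wild type array. How many of all probe sets show this was not counted. Without ALA the signal rose 2.51-fold, from 364 ± 18.5 to 916 ± 94.3 (SD, n = 2), a log2 difference of 1.33 (SE 0.21, limma adjusted p = 0.00143). It was 0.93 with median centring (adjusted p = 0.00689), and adjusted p ranged from 0.000842 to 0.0129 over the alternatives. In hypoxia the log2 difference was 0.48 (95% interval -0.01 to 0.97, adjusted p = 0.0904), from 161 ± 16.2 to 227 ± 61.5. The hypoxia value rests on replicate 2, the array of high 18S signal. It was 0.76 without replicate 1 (adjusted p = 0.0266), 0.20 without both arrays of high 18S signal and -0.01 with median centring.

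The response of HMX1 was larger to heme starvation than to hypoxia by 0.85 on the log2 scale (95% interval 0.16 to 1.55), which did not pass after adjustment (unadjusted p = 0.022, adjusted p = 0.0894). It passed with quantile normalization (1.13, adjusted p = 0.0406) and without replicate 2 in hypoxia (1.13, adjusted p = 0.0434). Adjusted p ran from 0.0406 to 0.4 over the alternatives. Between the control cultures the gene was 2.27-fold brighter in ALA-fed hem1 than in aerobic wild type (log2 1.18, SE 0.21, adjusted p = 0.00718). Leaving out replicate 2 with ALA took that call to the threshold (adjusted p = 0.05), within a range of 0.00215 to 0.05. Heme-starved hem1 stood 4.09-fold above hypoxic wild type (log2 2.03, adjusted p = 0.000937). HMX1 was also 1.63-fold lower in hypoxia than in hem1 with ALA (log2 -0.70, adjusted p = 0.0249; 0.00592 to 0.154 over the alternatives). That last call was lost without replicate 1 in hypoxia, and without either array with ALA. The levels ran from hem1 without ALA to hem1 with ALA, hypoxia and normoxia, and the lowest pair did not differ beyond its spread.

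RSB1, the long-chain base exporter gene, ran the other way. Its signals were 136 and 149 in ALA-fed hem1, 23.1 and 31 in starved hem1, 32.9 and 32.6 in aerobic wild type, and 25.9 and 29.1 in hypoxic wild type. Only hem1 with ALA stood clearly above the 30th percentiles. All 4 arrays without ALA and in hypoxia were dim, and the normoxia arrays lay just above their percentiles of 26.6 and 31.2. RSB1 fell at least 2.99-fold when ALA was withheld, from 143 ± 8.99 to 27.0 ± 5.55 (SD, n = 2), with a fitted log2 difference of -2.41 (SE 0.27, limma adjusted p = 0.00022). Raising dim signals to the 30th percentile reduced the fall to -1.58 (adjusted p = 9.24e-05), and no alternative lost the call. As deposited, RSB1 was 4.35-fold brighter in ALA-fed hem1 than in aerobic wild type (143 against 32.7 ± 0.254, log2 2.12, adjusted p = 0.00139). In hypoxia the log2 difference was -0.25 (95% interval -0.87 to 0.36, adjusted p = 0.443), between signals too low to order. It passed as a fall with quantile normalization (-0.77, adjusted p = 0.0354) and median centring (-0.74, 0.0372), and was 0.36 with the floor (0.0681), within a range of 0.0354 to 0.736. The 3 lower groups are therefore not ordered here.

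RSB1 is the member whose response differed between the treatments, by -2.16 on the log2 scale (SE 0.38, adjusted p = 0.00823). The difference was -1.87 without both arrays of high 18S signal, where it did not pass (adjusted p = 0.0677), and the other alternatives kept it past the threshold, down to 0.00128. Its hypoxia arrays were both dim, and its normoxia arrays lay just above their percentiles, so a fall in hypoxia could hardly have been measured. The difference rests on the control cultures, which differed by 2.12 on the log2 scale, while the treated cultures differed by -0.04.

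RTA1, the 7-aminocholesterol resistance gene, gave the largest rise of the 4 members in both treatments. Its arrays gave 63.7 and 58.1 in ALA-fed hem1, 974 and 1249 in starved hem1, 24.5 and 35.1 in aerobic wild type, and 764 and 643 in hypoxic wild type. The treated arrays lay far above the control arrays of their strain. The rise without ALA was 18.1-fold, from 60.9 ± 3.9 to 1112 ± 195 (SD, n = 2), a log2 difference of 4.18 (SE 0.23, limma adjusted p = 5.76e-06). In hypoxia it was at least 23.0-fold, from 29.8 ± 7.5, where 1 of 2 arrays was dim, to 704 ± 85.7 (log2 4.58, SE 0.23, adjusted p = 2.23e-06). With median centring the log2 differences were 3.78 and 4.09. By fitted log2 difference in heme starvation, RTA1 ranked 57 and PUG1 195 of 7081 probe sets, counted from the highest.

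The responses of RTA1 to the treatments differed by -0.40 on the log2 scale (95% interval -1.14 to 0.35, adjusted p = 0.431). Its treated levels, 1112 and 704, differed by 0.65 (SE 0.23), which did not pass (adjusted p = 0.0946). Adding 32 to each signal brought that adjusted p to 0.0445, and the alternatives spanned 0.0445 to 0.35. In the control cultures ALA-fed hem1 exceeded aerobic wild type at least 1.99-fold (log2 1.05, adjusted p = 0.0147), a call that 5 of 17 alternatives lost (0.00417 to 0.0747). Those were quantile normalization, the added 32, and leaving out either array with ALA or replicate 1 in normoxia. Hypoxic wild type stood 11.5-fold above hem1 with ALA (log2 3.53, adjusted p = 1.45e-05). The order was hem1 without ALA, hypoxia, hem1 with ALA and normoxia, the same as for PUG1, with the top pair not separated.

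YLR046C, a further gene of the same membrane protein family, was much dimmer. Its signals came to 28.2 and 33.7 in ALA-fed hem1, 112 and 86.4 in starved hem1, 9.11 and 24.6 in aerobic wild type, and 77.8 and 89.5 in hypoxic wild type. All 4 control arrays were dim. It rose at least 2.71-fold without ALA (log2 1.67, SE 0.44, adjusted p = 0.0137) and at least 2.90-fold in hypoxia (log2 2.48, SE 0.44, adjusted p = 0.00176). The first of these calls was lost without replicate 1 with ALA (adjusted p = 0.07), without replicate 1 without ALA (0.0707) and without both arrays of high 18S signal (0.129). YLR046C passed the filter only through its treated arrays, and with the filter at the 50th percentile it was not tested. Within the family of 4, PUG1 and RTA1 thus rose in both treatments, and RSB1 fell in heme starvation. YLR046C rose from dim signals, less firmly without ALA.

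**Figure D2:**
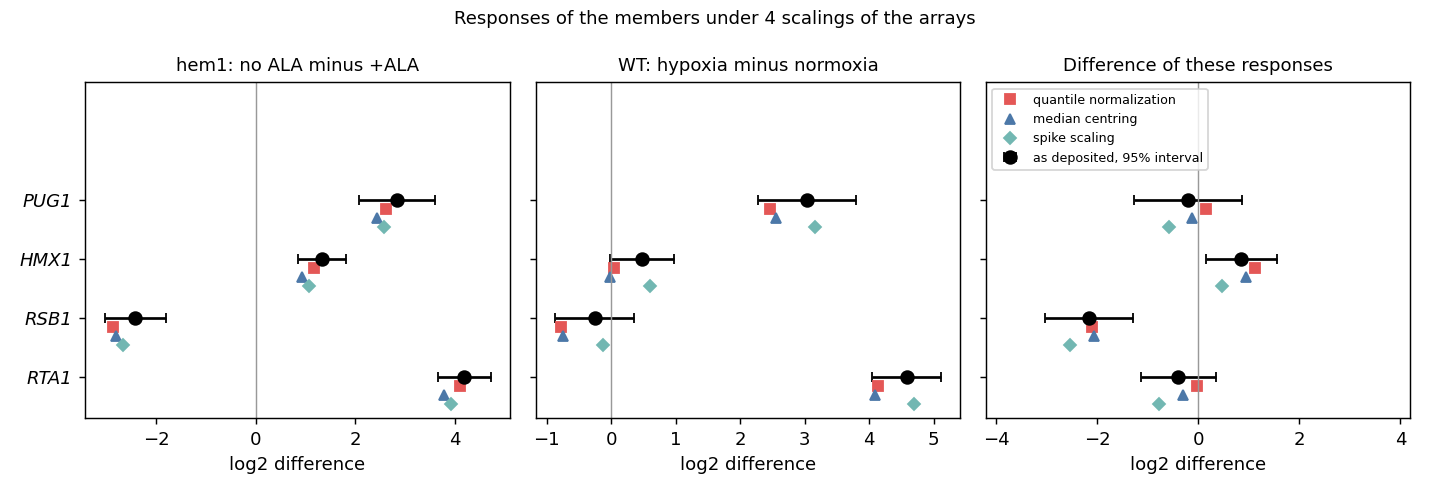
Log2 differences of the 4 genes without ALA against with ALA, in hypoxia against normoxia, and the difference of these responses. Black points are the deposited scaling with 95% intervals, and the coloured marks are 3 other scalings. PUG1 and RTA1 lie to the right of 0 in both treatments, RSB1 to the left without ALA (-2.41), and the hypoxia values shift with the scaling, for HMX1 from -0.01 to 0.6 and for RSB1 from -0.77 to -0.13.

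Against all probe sets tested, the counts of members read as follows. In heme starvation 3 of 4 members rose, where 30.2% of all probe sets did, and 1 of 4 fell, where 19.7% did. In hypoxia 2 of 4 rose, beside 33.3% of all. None of the 4 fell in limma, beside 22.5% of all, and none passed as a fall at an unadjusted p of 0.05 either, although RSB1 did with quantile normalization and median centring. The difference of the responses was called for 1 of 4, beside 17.8% of all. All 4 were higher in ALA-fed hem1 than in aerobic wild type, beside 13.8% of all, and 2 of 4, PUG1 and HMX1, were higher in heme-starved hem1 than in hypoxic wild type, beside 8.46%. Between hem1 without ALA and normoxia 3 of 4 differed, beside 56.7%, and between hypoxia and hem1 with ALA all 4 did, beside 49.3%. These comparisons share arrays, and the members were chosen with results of these data known.

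The enzymes that make heme form the pathway that yields the porphyrin and heme handled by PUG1 and HMX1. The counts of this and the other gene lists stand beside the same shares of all probe sets, 30.2% higher and 19.7% lower without ALA, and 33.3% higher and 22.5% lower in hypoxia. These shares hold for the deposited scaling and all 8 arrays. They are not given for the other settings, where the calls over all probe sets change too. Of the 8 heme synthesis genes 3 rose and 1 fell without ALA, with a median log2 difference of -0.01 (0.14 over all probe sets tested). In hypoxia 5 rose and 1 fell, with a median of 0.70 (0.21 over all). HEM14, for protoporphyrinogen oxidase, rose 2.63-fold without ALA (adjusted p = 0.000335) and 3.18-fold in hypoxia (adjusted p = 9.32e-05). HEM15, for ferrochelatase, which puts iron into protoporphyrin, rose 1.81-fold without ALA (adjusted p = 0.0025) and 1.5-fold in hypoxia (0.0121). The HEM15 call in hypoxia was lost with median centring (0.617), without replicate 2 in hypoxia (0.0707), without replicate 2 in normoxia (0.0546) and without both arrays of high 18S signal (0.078). HEM13, for coproporphyrinogen oxidase, did not pass without ALA (log2 0.00, 95% interval -0.87 to 0.87, adjusted p = 0.995) and rose 7.88-fold in hypoxia (adjusted p = 0.000312). The HEM13 responses differed between the treatments (-2.98, SE 0.54, adjusted p = 0.00917), while those of PUG1, at -0.21, did not pass. HEM13 and PUG1 were not tested against each other.

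HEM1 had log2 differences of 0.54 without ALA (adjusted p = 0.0422) and 1.12 in hypoxia (0.00134). The first of these was lost with median centring (0.541), quantile normalization (0.128) and spike scaling (0.402). It was also lost without an intensity trend (0.0604) and with the 4 hem1 arrays alone (0.0731). Leaving out both arrays of high 18S signal, or any 1 array other than replicate 2 of either hem1 group, lost it too. HEM2, for porphobilinogen synthase, was -0.65 without ALA (adjusted p = 0.0405) and 0.81 in hypoxia (0.0147). The HEM2 fall was lost without an intensity trend (0.0588) and without both arrays of high 18S signal. Leaving out either ALA-fed array, replicate 1 of starved hem1 or either hypoxia array lost it too. The HEM2 rise was lost with median centring (0.287) and without both arrays of high 18S signal. It was also lost without replicate 2 in normoxia or either hypoxia array. HEM3, HEM4 and HEM12, for the steps up to coproporphyrinogen, had log2 differences of -0.25, -0.03 and -0.18 without ALA, and none passed as deposited. HEM3 passed as a fall with quantile normalization (-0.67, adjusted p = 0.045) and median centring (-0.65, 0.0442), and HEM4 with median centring (-0.43, 0.0449). In hypoxia HEM3 was at 0.15 and HEM12 at -0.15, neither passing, and HEM4 at -0.49 (adjusted p = 0.0383). The HEM4 call was lost with spike scaling (0.232), with the 4 wild type arrays alone (0.0554) and without any 1 wild type array. The falls among heme synthesis genes numbered 0 without both arrays of high 18S signal in either treatment, and 3 without ALA with median centring. The rises in hypoxia then numbered 3 in each of these settings.

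HMX1 belongs to the Aft1 iron regulon, of which 26 other listed genes were measured. Between the control cultures 22 of 26 genes were higher in ALA-fed hem1 than in aerobic wild type, beside 13.8% of all probe sets. None was lower, and the median log2 difference was 1.60 (0.11 over all probe sets tested). No gene was lower with quantile normalization, median centring or spike scaling either, and 22, 22 and 24 were higher. FIT2, a cell wall mannoprotein that holds siderophore iron, differed by 4.21 (adjusted p = 2.07e-05) and ARN2, a siderophore transporter, by 3.81 (2.07e-05), against 1.18 for HMX1. In heme-starved hem1 22 of 26 were higher than in hypoxic wild type. Of all probe sets 8.46% were higher in that comparison. Without both arrays of high 18S signal fewer of the list were called there, and fewer of all probe sets too. FRE3 and FRE5, both in the list, were dim on every wild type array and passed the filter only through their hem1 arrays. Strain, treatment and time cannot be told apart in either comparison.

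When ALA was withheld, 5 of the 26 rose (30.2% of all probe sets did) and 2 fell (19.7% of all), with a median log2 difference of 0.27 (0.14 over all), while HMX1 was at 1.33. With median centring 3 rose and 6 fell. Leaving out replicate 1 of either hem1 group left 3 rises, and leaving out either ALA-fed array, replicate 2 of starved hem1 or either hypoxia array left 1 fall. TIS11, for a protein that speeds decay of mRNAs for iron-using proteins, rose 2.88-fold (adjusted p = 0.00217), AKR1, a palmitoyl transferase gene, 2.21-fold (0.000738), and ISU2, a scaffold for iron-sulfur clusters, 2.09-fold (0.0028). FIT1, a relative of FIT2, fell 5.24-fold (0.00159). FET3, the iron oxidase gene, had a log2 difference of -0.06 (adjusted p = 0.711). In hypoxia 8 rose and 4 fell (5 and 8 with median centring), with COT1, a vacuolar metal transporter, up 2.79-fold (0.000451), FRE1, a metal reductase, down 3.23-fold (5.93e-05), and FET3 down 6.68-fold (1.79e-06). HMX1 at 0.48 lay near the list's median of 0.32 there.

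RSB1 is known as a target of the drug resistance regulators Pdr1 and Pdr3, and 10 other such targets were measured. Of these 8 were higher in ALA-fed hem1 than in aerobic wild type, beside 13.8% of all probe sets, and none was lower. The median log2 difference of the list was 1.07 (0.11 over all), beside 2.12 for RSB1. Without replicate 2 with ALA most of these calls were lost, and fewer of all probe sets were called too. PDR15, a multidrug ABC transporter gene, differed by 2.86 (adjusted p = 0.00148) and PDR5, the main such transporter, by 1.27 (0.00166). When ALA was withheld 5 fell and 2 rose, with a median of -0.62 against 0.14 over all (2 fell and 1 rose without both arrays of high 18S signal). Leaving out replicate 1 without ALA, or either array with ALA, left 3 falls. PDR16, a phosphatidylinositol transfer protein gene, fell 5.76-fold (4.88e-05) and PDR5 1.87-fold (0.00273). PDR10, a plasma membrane ABC transporter gene, rose 5.18-fold (9.18e-06), against the direction of RSB1.

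In hypoxia 5 of the Pdr targets rose and 3 fell, with a median of 0.44 (0.21 over all). With median centring 2 rose and 3 fell, and without both arrays of high 18S signal 3 rose and 1 fell. Leaving out replicate 1 in hypoxia left 2 rises and 1 fall, replicate 2 in hypoxia left 3 rises, and replicate 2 in normoxia left 1 fall. PDR10 rose 4.88-fold (8.25e-06) and PDR16 fell 4.15-fold (9.75e-05), while RSB1 was at -0.25.

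The genes that make and turn over the long-chain bases exported by RSB1 were mixed. Of 15 genes 3 rose and 4 fell without ALA, beside 30.2% and 19.7% of all probe sets, with a median of -0.24 (0.14 over all). In hypoxia 2 rose and 7 fell, beside 33.3% and 22.5% of all, with a median of -0.60 (0.21 over all). With median centring 11 fell without ALA, and 1 rose and 12 fell in hypoxia. Calls over all probe sets with that scaling numbered 3812 without ALA and 4035 in hypoxia (3534 and 3954 as deposited). Their shares higher and lower are not given. YSR3, a phosphatase for long-chain base phosphates, rose 21.0-fold without ALA (adjusted p = 1.71e-06) and 67.4-fold in hypoxia (1.24e-07). YDC1, a ceramidase gene, rose 2.28-fold without ALA (0.000283), and LCB5, a long-chain base kinase gene, 2.28-fold (0.00217). LAG1, for ceramide synthase, fell at least 1.67-fold without ALA (0.0013), to dim signals of 16.7 and 22.0. In hypoxia LIP1, a ceramide synthase subunit gene, fell 2.09-fold (0.000438) and TSC10, a reductase of long-chain base synthesis, 2.31-fold (0.000535).

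Sterol import is another uptake route opened in cells without heme or oxygen. Of 6 genes for importers and their regulators 4 rose and none fell without ALA (median 1.52, 0.14 over all), and 6 rose in hypoxia (median 2.79, 0.21 over all). With median centring 3 rose and 1 fell without ALA, and 5 rose in hypoxia. AUS1, an ABC transporter for sterols, rose 7.31-fold without ALA (adjusted p = 3.45e-06) and 28.6-fold in hypoxia (1.24e-07), and PDR11, its close relative, 5.07-fold (6.42e-05) and 8.85-fold (9.38e-06). UPC2, which activates both, rose 7.04-fold (9.18e-06) and 19.2-fold (6.55e-07). Withholding ALA thus moved PUG1 (7.11-fold) by about as much as AUS1 and UPC2. The AUS1 responses differed between the treatments (-1.97, adjusted p = 0.000962), and those of PUG1 did not pass. AUS1 already differed between the control cultures, 301 in ALA-fed hem1 against 96.7 in aerobic wild type (log2 1.64, adjusted p = 0.000299). Its treated levels, 2202 without ALA and 2768 in hypoxia, did not pass as different. AUS1 and PUG1 were not tested against each other.

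**Figure D3:**
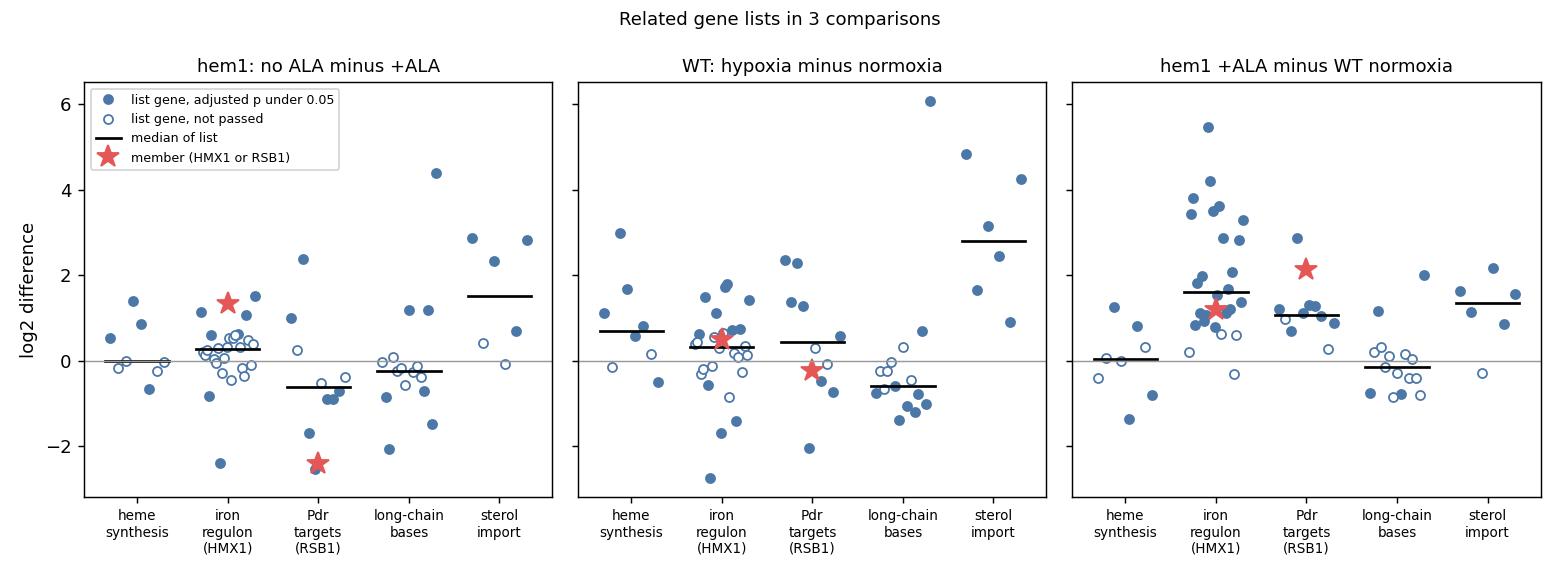
Log2 differences of 5 gene lists in 3 comparisons, each point a gene, filled where the adjusted p was under 0.05, with the median of each list as a bar and the member HMX1 or RSB1 as a star. The star of HMX1 (1.33) lies above the iron regulon's median (0.27) without ALA, and below it (1.18 against 1.60) between the control cultures.

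Patterns across the 8 arrays were compared by the root mean square difference of log2 signals, after each gene was centred on its own mean, over 5283 genes. For PUG1 the nearest were PCA1, a metal-exporting ATPase gene, at 0.42, PHO89, a phosphate transporter gene, at 0.43, GDH3, a glutamate dehydrogenase gene, at 0.50, and the vitamin B6 genes SNZ1 at 0.51 and SNO1 at 0.53. PCA1 and PHO89 are neighbours in the genome, and so are SNO1 and SNZ1. For RTA1 they were PAI3, an inhibitor of vacuolar proteinase A, at 0.20, NQM1, a transaldolase gene, at 0.35, GPG1 at 0.40, GRE1, a hydrophilin gene, at 0.42, and HEF3, a translation elongation factor gene, at 0.44. PAI3 read 83.4 and 94.7 in ALA-fed hem1, 1621 and 1821 in starved hem1, 52.9 and 55.5 in aerobic wild type, and 1361 and 1149 in hypoxic wild type.

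HMX1 had the smallest distance to its nearest gene of the 4 members. These distances are not scaled to a gene's range. Group means of log2 signal ran from 7.33 to 9.83 for HMX1, 4.29 to 9.19 for PUG1 and 4.87 to 10.11 for RTA1. PRM4, a pheromone-regulated gene, lay at 0.11, and read 1149 and 1345 in ALA-fed hem1, 3382 and 2901 in starved hem1, 589 and 548 in aerobic wild type, and 772 and 909 in hypoxic wild type. YLR126C at 0.19, the aquaporin gene AQY2 at 0.25, the a-factor gene MFA2 at 0.26 and RRT6 at 0.27 followed. No gene of the iron list, which need not hold every iron-regulated gene, was among these 5. For RSB1 the nearest were UTP9, a ribosome assembly gene, at 0.34, LAG1 at 0.39, YNCJ0008W and the aconitase gene ACO1 at 0.42, and YBL081W at 0.43. The probe set of YNCJ0008W is of a type shared among similar sequences, so it may not read that gene alone. With quantile normalization 3 of the 5 nearest genes stayed for PUG1, for HMX1 and for RTA1.

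**Figure D4:**
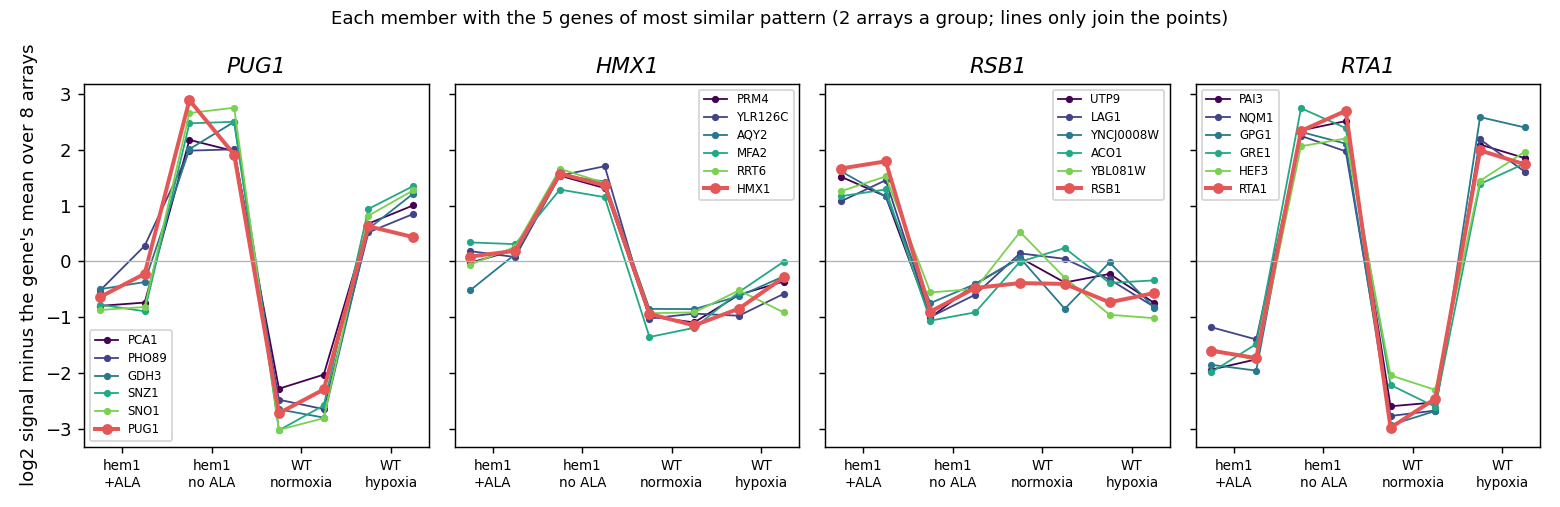
Log2 signal minus each gene's own mean over the 8 arrays, for each member (thick red) and the 5 genes of most similar pattern. The HMX1 lines lie closest together (PRM4 at a root mean square difference of 0.11), and PUG1 crosses its neighbours on the arrays without ALA, where it read 820 and 417. HMX1 also ranges less than PUG1 and RTA1, and the distances are not scaled to range.

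The genes next to the members on the chromosome were looked up by position and not by their response. TOG1, on one side of PUG1, rose with log2 differences of 2.15 without ALA (adjusted p = 0.000649) and 2.01 in hypoxia (0.000682), and YER186C, on the other side, was at 0.34 and 0.01 and did not pass. Beside RTA1, RPS0A, a ribosomal protein gene, fell by 0.99 (adjusted p = 0.0026) and by 1.60 (0.000167), and SLI1 was at 0.86 (0.117) and 1.19 (0.038). Beside HMX1, QRI5 was at 0.53 (0.0248) and -0.13 (0.516), and ENT2 at 0.26 (0.29) and 0.63 (0.0216). Beside RSB1, RAT1 was at 0.46 (0.0613) and 0.42 (0.0769), and ETT1 at -0.48 (0.049) and -0.10 (0.654).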

How the data were processed

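Total RNA of 8 yeast samples was read on 1 Affymetrix array each. The deposited values are intensities (linear MAS5 signals, one for each probe set, per the submitters' processing notes), with the MAS5 version not given in the sources used. Only this table of values was used. Gene names came from the platform annotation, matched to a RefSeq gene table (R64 assembly) that served only for current names and neighbours. Of 9335 probe sets 60 were controls, and 6504 had exactly 1 gene. A gene with several probe sets was represented by the brightest.

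Probe sets above the 30th percentile of their array on at least 2 arrays were tested (7081). The log2-transformed signals went into limma 3.58.1 (R 4.3.3), 1 mean per group, all 8 arrays in 1 fit with an intensity trend (residual degrees of freedom 4, prior 4.36), tested on simulated data. The threshold was an adjusted p of 0.05. A group dim on 1 or 2 arrays gives a fold as "at least", against the higher of signal and percentile. Groups follow the labels' descriptions, and replicate numbers are names that pair no arrays.

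The members, gene lists and rules were chosen with earlier results of these data known, so no list was tested as a set. Named genes are the members, the 5 of most similar pattern, the chromosomal neighbours, up to 4 per list and direction with the smallest adjusted p, the heme synthesis genes and YLR046C. FET3 was named in heme starvation after its value was seen. Alternatives were other scalings, floors, filters and left-out arrays. Scaling to the hybridization spikes was chosen after seeing the data. No sequence is shown.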

Additional observations from a re-analysis of the deposited data

Results flagged for a closer look

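RSB1 was the member whose log2 difference differed between the treatments in limma's test of the difference itself. The value was -2.16 (heme starvation minus hypoxia, SE 0.38, adjusted p = 0.00823), from -2.41 without ALA and -0.25 in hypoxia. Its signal exceeded the dim range in hem1 with ALA, at 136 and 149, and was between 23.1 and 32.9 on the other 6 arrays. Wild type cells in air thus already stood near the dim range, and a fall in hypoxia could hardly have been measured.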

How the results depend on the processing

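Over 212 alternatives to the 12 member responses and their differences, 206 kept their side of the threshold, 5 gained a call, 1 lost it and none with a call reversed. HMX1 in hypoxia ran from 0.2 to 0.76 with 1 array left out, and passed at the latter. RSB1 in hypoxia passed at -0.77 with quantile normalization and -0.74 with median centring. The difference of the HMX1 responses passed at 1.13 with quantile normalization, and ran from 0.57 to 1.13 with 1 array left out. That of RSB1 did not pass without both arrays of high 18S signal (-1.87). Probe sets called for a difference of responses numbered 467 without those arrays, and 533 to 1089 with 1 array left out, against 1257. RSB1 between starved hem1 and normoxia, -0.29 and not called, reversed to 0.54 with dim signals raised to the 30th percentile, which lies higher on the starved arrays. Where no value above shows it, the cause was not tested. No paired analysis was possible because the labels give the groups no shared replicate numbers. Other probe sets of the members were not run as an alternative, since each has 1. Signals near the 30th percentile limit the statements on RSB1 outside ALA-fed hem1, on PUG1 and RTA1 in normoxia and on YLR046C in all controls. With 2 arrays a group, leaving out 1 gives its lone partner the spread of the other groups.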
